A study of Mus musculus with 4 samples.

Results

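The cytosolic ribosomal protein genes were examined in cultured mouse macrophages before and after lipopolysaccharide (LPS). Members were the protein-coding genes of the deposited table whose names begin with Rpl or Rps followed by a digit, p or a, without the ribosomal S6 kinases (names beginning Rps6k). The rule took 94 of 54532 genes. Of these, 77 were the core genes of the ribosome, 46 for the large subunit and 31 for the small subunit. The other 17 were 8 processed-copy names ending in ps and a number, paralogues such as Rps27l and Rpl22l1, and Rps19bp1, a binding partner of the Rps19 protein that is not itself a ribosomal protein. Fau and Rack1, which also encode ribosomal proteins, are among the genes that the rule leaves out by name.

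The cells were bone marrow-derived macrophages of C57BL/6 mice aged 6 to 8 weeks, grown for 6 days in medium conditioned by L929 fibroblasts. In every mouse Fbxw7 was floxed (flanked by loxP sites), titled WT when alone and KO when combined with LysM-cre, a Cre recombinase expressed from the myeloid lysozyme gene Lyz2. Fbxw7 encodes the substrate-binding subunit of a ubiquitin ligase. Each title was sequenced untreated and after 3 h of LPS, 1 library for each of the 4 groups, and values below are given in the order WT untreated, KO untreated, WT with LPS and KO with LPS. The labels do not say how many animals went into a library, and Cre under Lyz2 acts in the cells as they become myeloid, so gene deletion may be incomplete.

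Total counts were between 17610372 and 23835940 per library. The genotype tags disagreed with the titles: both untreated libraries were tagged with the floxed genotype and both LPS libraries with the cre genotype. Fbxw7 counts did not separate the titles either, at 17.9, 17.2, 9.90 and 11.7 CPM (counts scaled to the size of the library), although counts over a whole gene cannot show the loss of a single exon. Lyz1, the neighbour of Lyz2, was at 2.86, 32.9, 33.1 and 2.63 CPM, which paired the untreated KO-titled library with the WT-titled LPS library. Groups here follow the titles, and every statement on WT or KO is one on titles. All 10 macrophage markers were measured, with summed levels of 15842 to 27699 CPM, while the lists for neutrophils, T cells, B cells, fibroblasts, erythroid cells and dendritic cells each summed to at most 62.0 CPM.

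Ribosomal proteins are assembled with ribosomal RNA in the nucleolus into the small subunit, which reads the messenger RNA, and the large subunit, which joins the amino acids. Each ribosome needs close to equal numbers of nearly every protein, and the genes are among the most strongly transcribed in most cells. Their mRNAs typically begin with a cytosine at the cap followed by a run of pyrimidines, the terminal oligopyrimidine (TOP) motif, through which the kinase complex mTORC1 and the RNA-binding protein LARP1 control how often they are translated, a level that sequencing of total mRNA does not measure.

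The starts of the following genes are printed because this motif is the sequence feature that the members are known for. RefSeq promoter sequence was matched for 66 of the 94 members. Each line gives 30 bases on the gene's strand (GRCm38.p6), 10 before the annotated start and 20 from it. Capitals mark the run searched for, a C followed by at least 4 bases that are each C or T, on the gene's strand only. In the first 5 genes the letters from the annotated start on form such a run, which is marked from there although pyrimidines can also precede it, and in the last they do not.
Rps6, chr4:86857348-86857377, minus strand: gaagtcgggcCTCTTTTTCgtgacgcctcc
Rpl38, chr11:114668570-114668599, plus strand: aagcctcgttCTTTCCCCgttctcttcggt
Rps15a, chr7:118116128-118116157, minus strand: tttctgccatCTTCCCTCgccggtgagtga
Rpl15, chr14:18270967-18270996, minus strand: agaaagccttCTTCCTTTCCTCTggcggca
Rps10, chr17:27635225-27635254, minus strand: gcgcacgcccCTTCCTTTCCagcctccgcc
Rpl41, chr10:128549149-128549178, minus strand: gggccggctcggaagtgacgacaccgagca
Read from the annotated start on, the run was present in 12 of the 57 core genes with a sequence (21.1%). It was present in 182 of 8805 other protein-coding genes of at least 1 CPM (2.07%) and in 2.43% of the 26959 other genes searched. Within 10 bases of the start, it was present in 31 of the 57 core genes (54.4%) and in 31.8% of the other expressed genes. A missing run says only that these letters are not at the annotated position. Among the core genes, the run at the start did not separate the LPS ratios described below: the median log2 ratios were 0.21 in the WT title and 0.50 in the KO title for the 12 genes with it, and 0.23 and 0.44 for the 26 with no run within 10 bases.

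Of the 94 members, 88 reached a mean of 1 CPM over the 4 libraries and are called measured. Levels are CPM normalized by trimmed mean of M values (TMM), a scaling that centres most genes, unless stated otherwise. The 6 below 1 CPM were the paralogues Rpl3l, Rpl10l and Rpl39l and the copies Rpl13a-ps1, Rpl36-ps4 and Rpl9-ps1, and 3 of the 6 had no count in any library. Rpl3l, the striated-muscle form of Rpl3, was at 0.272, 0.145, 0.291 and 0 CPM, where 0 counts in the last library allow up to 3 counts. Rpl10l and Rpl39l are forms best known from the testis, and the first had 0 counts throughout while the second was at 0.317, 0.253, 0.641 and 0.857 CPM.

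Of the 77 core genes, 73 had a mean of at least 100 CPM. The median of the 77 was 465, 468, 556 and 636 CPM, and the quartiles in the untreated WT-titled library were 304 and 610 CPM. The acidic stalk protein gene Rplp0, whose product anchors the arm of the large subunit that recruits translation factors, was the highest core gene by CPM in each library, at 1285, 1303, 1465 and 1652 CPM. Per kilobase of the main transcript, Rplp1, also of the stalk, was the most abundant member, with a mean of 2753 CPM per kb, followed by Rps29 (1707), Rps14 (1630) and Rpl10 (1478). The authors' FPKM divide by the length of all exons together, which had a median of 1.98 times the main transcript and reached 9.80 times for Rps15a, so members' FPKM levels do not follow the order of their main transcripts. By mean FPKM, the highest 5 were Rplp1 (2741), Rps29 (960), Rps15 (867), Rplp0 (856) and Rpl36 (851).

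Only 4 core genes were below a mean of 100 CPM, namely Rpl21, Rpl13a, Rps10 and Rpl24. Rpl24, a large-subunit protein, was at 0.680, 0.868, 1.51 and 2.02 CPM, from 15, 24, 26 and 33 counts, and was the lowest core gene in each library. Rps10, a small-subunit protein, had 33, 70, 43 and 47 counts. For Rpl24, Rps10, Rpl13a and the paralogue Rpl36al, between 83.4% and 97.5% of the coding bases are also covered by a second gene model on the same strand, such as RPS10-NUDT3 for Rps10, and each of those models was listed at 0 counts in each library. The counts of these 4 members are therefore uncertain.

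**Figure D1:**
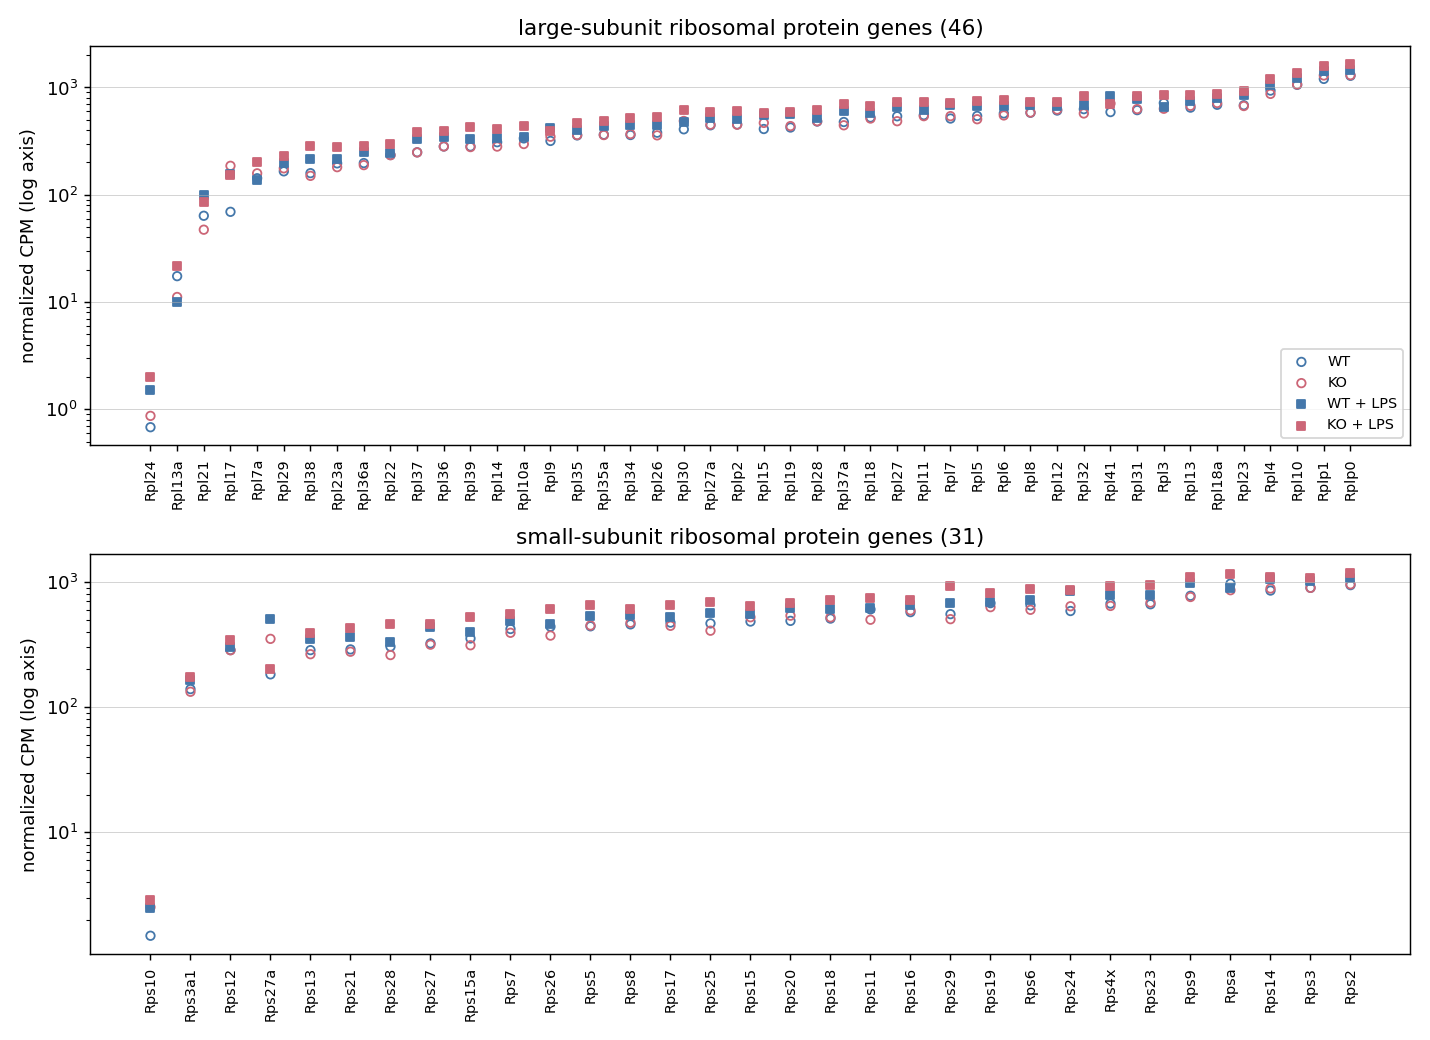
Normalized level (CPM, log axis) of each core ribosomal protein gene in the 4 libraries, ordered by mean level, with open circles for untreated and filled squares for LPS, blue for the WT title and red for the KO title. Most genes lie in 1 band with the LPS squares above the circles (an order that scaling by library totals does not keep), and Rpl24, Rpl13a, Rpl21, Rpl17, Rps10 and Rps27a stand apart in level or in order.

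Free of any scaling between libraries, the members together held 4.66% of all counts in the untreated WT-titled library (95% exact binomial interval 4.66 to 4.67%), 4.31% in the untreated KO-titled library, 3.61% in the WT-titled LPS library and 4.19% in the KO-titled LPS library. The share was lower after LPS in both titles, by more in the WT title. These intervals, like those below, cover counting error only, and reads without molecular identifiers are not independent molecules. The 10 most abundant members took between 24.7 and 25.7% of the members' counts in each library. Counts of small-subunit genes were 0.753, 0.735, 0.751 and 0.759 times those of large-subunit genes. The mitochondrial chromosome held 1.51, 1.31, 1.23 and 1.52% of counts in the same libraries, and its part in the members' share was not tested. In bulk RNA, fewer cells of a type and less RNA per cell cannot be told apart.

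**Figure D2:**
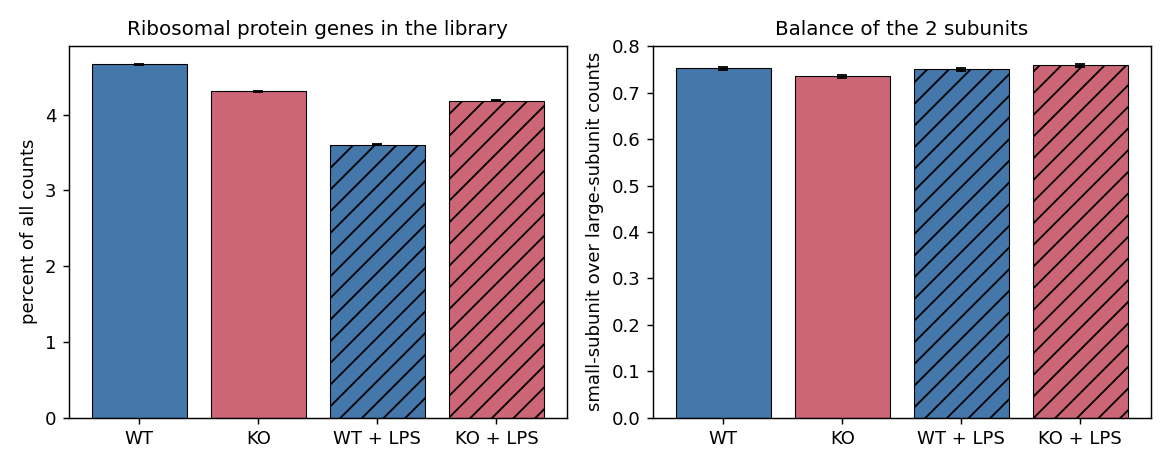
Share of all counts held by the 94 members (left) and ratio of small-subunit to large-subunit counts (right) in each library, with blue bars for the WT title, red bars for the KO title, hatching for LPS and 95% counting intervals. The share was 4.66 and 4.31% untreated and 3.61 and 4.19% with LPS, while the subunit ratio stayed between 0.735 and 0.759.

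The response to LPS was asked within each title. With TMM, the median log2 ratio of LPS to untreated over the 88 measured members was 0.24 in the WT title (quartiles 0.17 and 0.34) and 0.44 in the KO title (quartiles 0.34 and 0.57), but with library totals it was -0.37 and -0.03, so the direction depends on the scaling. The same change of scaling moved the median of all 12326 measured genes from -0.01 to -0.62 in the WT title and from -0.07 to -0.54 in the KO title. Relative to that median, the members were higher by 0.25 and 0.51 with TMM and by 0.25 and 0.51 with library totals. Relative to the 1911 other genes of at least 100 CPM, whose medians were 0.49 and 0.49 with TMM, the members were lower in the WT title and close in the KO title. The members' median thus lay between that of all genes and that of other abundant genes in each title.

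Large-subunit and small-subunit core genes had nearly the same medians, 0.24 and 0.24 in the WT title and 0.44 and 0.46 in the KO title. Both LPS libraries lay above both untreated libraries for 77 of the 88 measured members with TMM, against 34.6% of all measured genes (0 members and 38.1% of genes lay below). Of the 1911 other genes of at least 100 CPM, 1256 lay above and 231 below. With library totals, 2 members lay above and 45 below, against 15.6% and 64.4% of all measured genes. The KO-titled LPS library was the highest of the 4 for 79 members with TMM, and the WT-titled LPS library was the lowest for 76 members with library totals. These counts were made for members only, so whether they differ from other genes is not known. With library totals the median log2 LPS ratio of all measured genes in the WT title was itself -0.62. The 11 members whose groups overlapped under TMM were Rpl3, Rpl7a, Rpl7l1, Rpl13a, Rpl17, Rpl30, Rpl41, Rps10, Rps19bp1, Rps27a and Rpsa. Under either scaling the untreated libraries were closer to each other than the LPS libraries were: the median KO to WT log2 ratio was -0.01 untreated and 0.19 with LPS by TMM, and -0.12 and 0.23 by library totals.

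**Figure D3:**
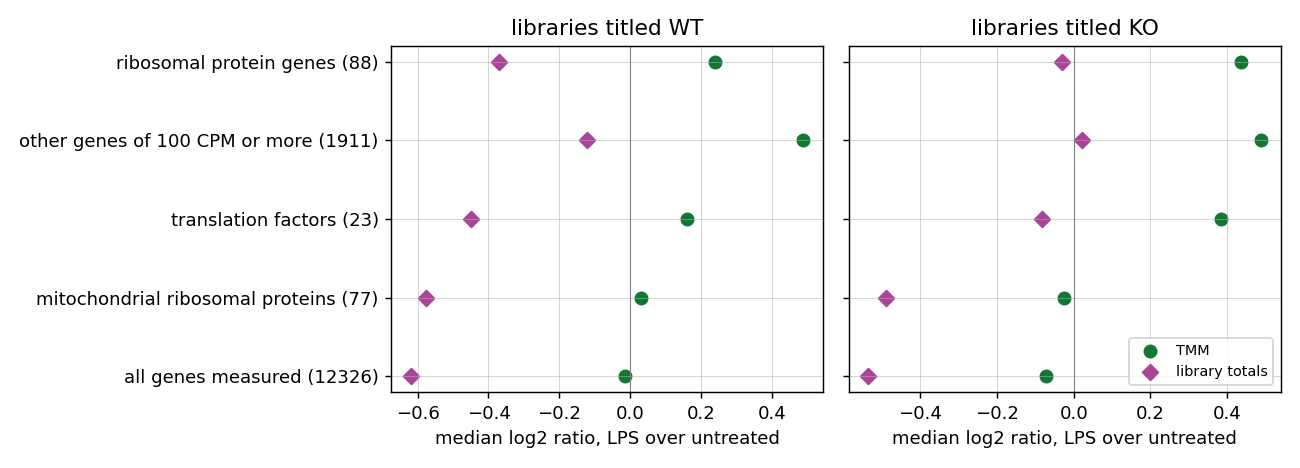
Median log2 ratio of LPS to untreated in each title for ribosomal protein genes, other genes of at least 100 CPM, translation factors, mitochondrial ribosomal protein genes and all measured genes, with the number of genes in brackets, green circles for TMM and purple diamonds for library totals. The members' median changes sign with the scaling (0.24 and -0.37 in the WT title, 0.44 and -0.03 in the KO title) and lies above the median of all genes under both.

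Few members differed by as much as 2-fold. The size rule used between 2 libraries asked for a log2 ratio of at least 2-fold (prior count 2) with a 95% counting interval that excluded no change, and carries no p-value because each group is 1 library. LPS was past the rule in the WT title for 3 of 88 members, Rps27a, Rpl17 and Rpl24, each higher, against 15.4% of measured genes higher and 15% lower (30.4% either way). In the KO title it was past the rule for 2, Rpl27-ps3 and Rpl24, both higher, against 14.6% higher and 17.8% lower (32.4% either way). Between titles, Rpl17 alone was past the rule untreated (higher in KO, background 3.16% higher, 2.03% lower and 5.18% either way). With LPS, Rpl13a was higher and Rps27a lower in the KO title (background 3.42% and 4.81%, and 8.23% either way).

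The effect of LPS across all 4 libraries was fitted with titled genotype and treatment as terms in edgeR's quasi-likelihood test, which leaves 1 residual degree of freedom. At an adjusted p of 0.05, 0 of 89 tested members were called, against 15.9% of 13989 genes tested (9.7% rose and 6.2% fell). Unadjusted p was under 0.05 for 2 members, Rpl21 and Rpl38. DESeq2 and limma-voom also called 0, and a model with treatment alone called these 2, both of which rose (background 16.1%). All 89 fitted effects were above 0 with TMM, against 6415 of the 13989 tested genes and 1514 of the 1911 other genes of at least 100 CPM. The median of the 89 was 0.35 log2 units with TMM and -0.19 with library totals. The fit averages the titles, so it does not show opposite directions such as those of Rps27a, described below. For the titled genotype, 0 of 89 members were called (background 0%), with 0 at an unadjusted p under 0.05. DESeq2 called 0 there as well.

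Rpl21, a large-subunit protein, had the smallest p. It was at 63.7, 47.2, 99.7 and 86.2 CPM, so both LPS libraries were above both untreated ones with TMM. With library totals they were not (79.7, 54.8, 81.8 and 72.3), and the fitted effect was 0.22 log2 units with an adjusted p of 0.47 in edgeR. With TMM the effect was 0.76 ± 0.21 (SE) log2 units, with an adjusted p of 0.069 in edgeR, 0.097 in DESeq2 and 0.063 in limma-voom. As a share of the counts of all members, it was higher with LPS by 0.41 log2 units in the WT title and 0.44 in the KO title. It was the 1 member higher in both titles by at least 0.32 log2 units with counting intervals that excluded no change, and 0 were lower. That comparison uses no scaling between libraries. Rpl21 also has 54 pseudogenes in the table that are at least 95% identical to its coding sequence. These held 63.3, 69.3, 56.7 and 65.7% of the counts of the gene and copies together. With TMM, the joint log2 LPS ratios were 0.41 in the WT title and 0.71 in the KO title, against 0.65 and 0.87 for the gene alone. The counts of all members together, without copies, had log2 ratios of 0.24 and 0.42 with TMM. The joint counts of Rpl21 thus gained on the family by less than 0.32 log2 units in each title. No counting interval was made for that gain.

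Rpl38, a small protein of the large subunit with a known part in the translation of Hox mRNAs, was at 159, 150, 214 and 285 CPM. Both LPS libraries were above both untreated ones with TMM, but with library totals its log2 ratio was -0.18 in the WT title and 0.46 in the KO title. The fitted effect was 0.68 ± 0.25 log2 units (adjusted p 0.13, edgeR, 0.14 in DESeq2 and 0.12 in limma-voom). Rps29, a zinc-binding protein of the small subunit, was at 552, 503, 681 and 927 CPM, and Rps25, known for its part in internal initiation of translation, at 465, 407, 560 and 689 CPM. Rpl37 was at 249, 248, 332 and 384 CPM. These genes, with Rpl21, Rpl38 and the copy Rpl27-ps3, were the 6 that gained most within the family among members of at least 5 CPM, and the ratios of Rps29, Rps25 and Rpl37 with library totals were below 0 in the WT title and above 0 in the KO title.

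Several of these encode very short proteins. The 9 core genes of at least 100 CPM with coding sequences up to 300 bases (Rpl37, Rpl37a, Rpl38, Rpl39, Rpl41, Rps21, Rps27, Rps28 and Rps29) had median log2 LPS ratios of 0.35 and 0.63 in the WT and KO titles. The 21 with more than 600 bases had medians of 0.22 and 0.40. Across the 73 core genes of at least 100 CPM, Spearman's rho between coding length and the ratio was -0.28 and -0.30, a description of genes measured in the same libraries. Across 1879 other protein-coding genes of that level it was -0.01 and 0.03. Rpl41, the shortest with 75 coding bases, did not follow the others in the KO title: it was at 590, 709, 839 and 700 CPM. The part of fragment length or RNA quality in this pattern was not tested.

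At the other end of the family were Rpl7l1, Rps19bp1, Rpl13a, Rpsa, Rpl7a and Rpl3. Rpl7l1, a paralogue of Rpl7 that acts in ribosome assembly, was at 84.8, 96.1, 91.5 and 92.5 CPM and Rps19bp1 at 15.6, 22.3, 19.2 and 19.5 CPM, so neither separated LPS from untreated. Rpsa, a small-subunit protein also known as the laminin receptor, was at 968, 857, 888 and 1147 CPM. Rpl3, which lies close to the catalytic centre, was at 716, 633, 658 and 858 CPM. With TMM both were lower with LPS in the WT title and higher in the KO title. With library totals the ratios of both were below 0 in each title, though that of Rpl3 in the KO title was close to no change (log2 ratio -0.03).

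**Figure D4:**
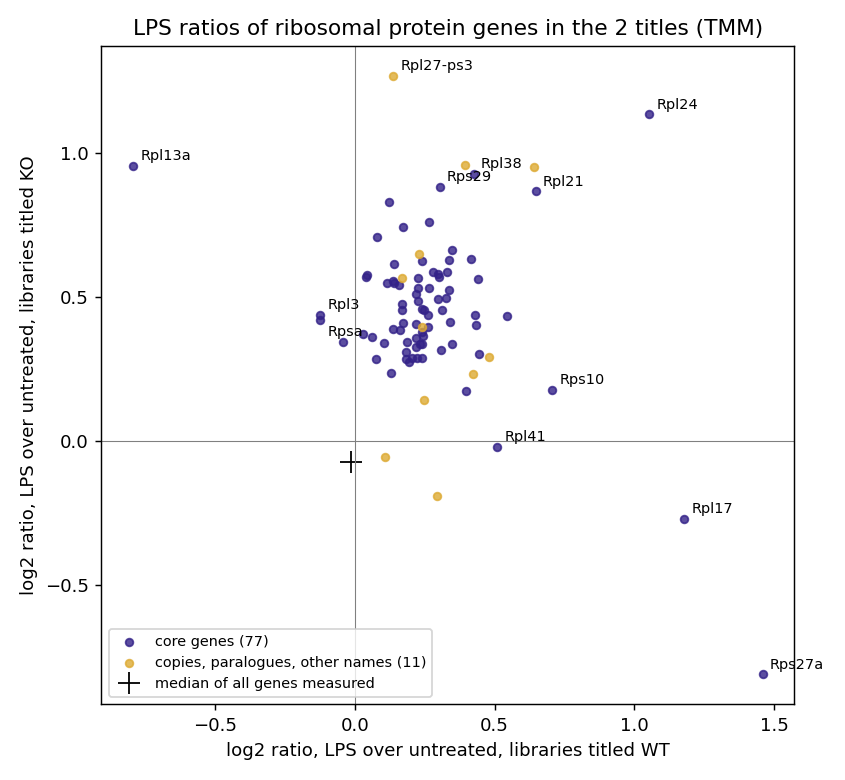
Log2 ratio of LPS to untreated (TMM) in the WT title (horizontal) against the KO title (vertical) for the 88 measured members, with core genes in dark blue and copies, paralogues and other names in yellow. Most members lie between 0 and 0.7 on both axes, above the median of all measured genes (cross), while Rps27a, Rpl17 and Rpl13a lie far from the rest in opposite directions; scaling by library totals moves all points down and left, with medians of -0.37 and -0.03.

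Among the core genes the ratios in the 2 titles showed little relation. Over 77 genes, Pearson's r was -0.40 and Spearman's rho -0.00. Without Rps27a, Rpl17 and Rpl13a, left out after their values were seen, r was 0.25 and rho 0.12 over 74 genes. The points share their 4 libraries, and no p is given.

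Rps27a showed the most divided pattern. The gene encodes ubiquitin fused to a small-subunit protein and lies on the minus strand at chr11:29545846-29548109 (GRCm38). It had 4024, 9691, 8614 and 3267 counts, or 183, 350, 502 and 200 CPM. The untreated KO-titled and the LPS WT-titled libraries were high and the other 2 low, the pairing that Lyz1 also has. With LPS it was 2.75-fold higher in the WT title (95% counting interval 2.65 to 2.85) and 1.75-fold lower in the KO title (1.68 to 1.82). In the authors' deposited table its log2 fold was 1.49 with an adjusted p of 0.0037 in the WT title and -0.81 with 0.17 in the KO title. Directions were the same with library totals (log2 ratios 0.85 and -1.28). The pattern thus ran along neither the titles nor the genotype tags, and its cause was not tested.

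Rps27a has 8 pseudogenes with at least 95% identity over at least 50% of its coding sequence. Of these, Gm8430 (chr6:122456904-122457374, plus strand) and Rps27a-ps2 (chr9:83409660-83410126, plus strand) held most of the copies' counts, and each differs from the coding sequence by 1 base, A71G and A375G, counted from the first coding base. Coding bases 47 to 95 are printed to show how alike they are, from GENCODE M21 transcripts (GRCm38), with the base at coding position 71 in capitals.
Rps27a: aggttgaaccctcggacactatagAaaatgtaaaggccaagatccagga
Gm8430: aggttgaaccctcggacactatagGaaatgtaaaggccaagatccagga
Rps27a-ps2: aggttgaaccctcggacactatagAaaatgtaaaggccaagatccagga
The copies ran opposite to the gene, with 379, 216, 181 and 412 counts for Gm8430 and 247, 183, 137 and 231 for Rps27a-ps2. They were too few to balance it: the gene and all its copies together were at 211, 365, 520 and 239 CPM, so the order of the libraries was the same.

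Rpl17 behaved differently once its copies were counted. The gene, for a large-subunit protein that lines the exit tunnel, had 1528, 5146, 2695 and 2521 counts, or 69.3, 186, 157 and 154 CPM. The untreated WT-titled library was low and the other 3 were close to one another. With LPS it was 2.26-fold higher in the WT title (2.13 to 2.41) and 1.21-fold lower in the KO title (1.15 to 1.27), and untreated it was 2.68-fold higher in KO than WT (2.54 to 2.84). Its 23 near-identical pseudogenes, chiefly Rpl17-ps10 and Rpl17-ps3, held 86.5, 64.1, 74.4 and 77.3% of the joint counts. The gene and copies together were at 513, 518, 613 and 679 CPM, with log2 LPS ratios of 0.26 and 0.39, near the family's medians.

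Rpl13a is known from interferon-treated myeloid cells, where its phosphorylated protein leaves the ribosome and joins the GAIT complex that silences inflammatory mRNAs. It had 384, 308, 172 and 354 counts, or 17.4, 11.1, 10.0 and 21.7 CPM, so the libraries of the 2 groups overlapped. With LPS it was 1.74-fold lower in the WT title (1.45 to 2.09) and 1.95-fold higher in the KO title (1.66 to 2.27). These directions were the same with library totals, and the overlapping gene model named above makes its level uncertain. Of 5 other genes of that pathway, 1 fell in edgeR, beside 6.2% of all tested genes. It was the kinase gene Dapk1, at 76.3, 61.9, 17.7 and 14.3 CPM (fitted effect -2.11 ± 0.21, adjusted p 0.0051, edgeR). Eprs, the scaffold of the complex, was at 117, 90.9, 160 and 167 CPM and was not called, and DESeq2 and limma-voom also called Gapdh lower.

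In all, 5 of 88 members had LPS ratios in opposite directions in the 2 titles with both counting intervals excluding no change, namely Rps27a, Rpl17, Rpl13a, Rpsa and Rpl3. With TMM the same was seen for 10.4% of all measured genes and 16.5% of other genes of at least 100 CPM, so the members' count is no more than the background. With library totals 31 of the 88 members had opposite directions, more than the 9.46% of genes, and Rpsa and Rpl3 were not among them. With that scaling the members' median log2 ratio was -0.37 in the WT title but -0.03, close to no change, in the KO title. Rps27a, Rpl17 and Rpl13a were among them under both scalings.

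Rpl30, a large-subunit protein gene, and its copies ran in opposite directions along the titles. The gene was at 408, 487, 480 and 615 CPM, higher in both KO-titled libraries than in both WT-titled ones, also with library totals. Its KO to WT log2 ratio was 0.26 untreated and 0.36 with LPS, both with counting intervals that excluded no change. Its 12 copies together had 1677, 735, 1931 and 715 counts. The main copies Gm12191 (1101, 533, 1381 and 457 counts) and Rpl30-ps10 (487, 150, 457 and 208 counts) were high in both WT-titled libraries and low in both KO-titled ones. The 5 copies with the most counts all carry G96A relative to Rpl30. Coding bases 72 to 120 are shown because they hold that base, in capitals (GENCODE M21, GRCm38). Rpl30 lies at chr15:34440505-34443640 on the minus strand, Gm12191 at chr11:49678710-49679057 on the minus strand and Rpl30-ps10 at chrX:71803688-71804034 on the plus strand.
Rpl30: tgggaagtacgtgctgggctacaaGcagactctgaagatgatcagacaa
Gm12191: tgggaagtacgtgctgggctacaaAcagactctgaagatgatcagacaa
Rpl30-ps10: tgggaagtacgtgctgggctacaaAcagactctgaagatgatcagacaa
Relative to Rpl30, Gm12191 has no other mismatch in the coding sequence and Rpl30-ps10 has G10T and C20T besides. Together with its copies Rpl30 was at 484, 514, 592 and 659 CPM.

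Rps10 was the reverse case, a gene nearly without reads beside a copy with many. Its own count is also uncertain because RPS10-NUDT3 covers 92.1% of its coding bases, and the part of either in the low count was not tested. Rps10-ps2 (chr16:20822145-20822640, minus strand) had 3532, 4257, 3267 and 3426 counts, and copies held between 98.5 and 99.1% of the joint counts in each library. Rps10 lies at chr17:27630418-27636669 on the minus strand. The copy differs by 5 bases, T393C, T408C, C437G, A438G and G473A, of which the first 2 stand in capitals in coding bases 369 to 417.
Rps10: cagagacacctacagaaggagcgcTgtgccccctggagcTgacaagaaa
Rps10-ps2: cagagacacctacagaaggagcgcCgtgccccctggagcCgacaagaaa
Jointly they were at 170, 164, 202 and 223 CPM, within the range of the other core genes, with log2 LPS ratios of 0.25 and 0.44. Rpl24 with its copies remained low, at 6.76, 5.86, 11.4 and 11.7 CPM.

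Over the family, 550 pseudogenes matched 80 members at the same identity, and 409 of them had counts. Copies held 8.74, 8.31, 8.81 and 8.61% of the joint counts. For 70 members they held under 10%, and for 7 over 50%, namely Rps10, Rpl24, Rps3a1, Rpl17, Rpl36al, Rpl21 and the unmeasured Rpl10l. Counting genes and copies jointly left the median log2 LPS ratio at 0.24 and 0.44.

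**Figure D5:**
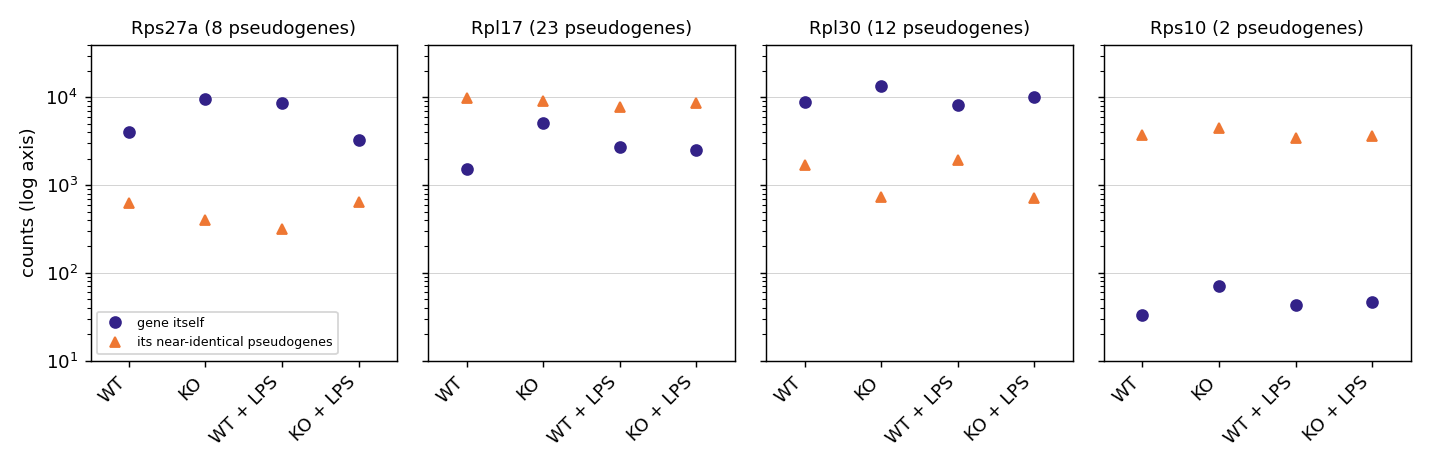
Counts (log axis) of Rps27a, Rpl17, Rpl30 and Rps10 (circles) and of their near-identical pseudogenes summed (triangles) in each library, with no scaling. Rps27a and its copies move in opposite directions, the Rpl17 gene is low in the untreated WT-titled library, the Rpl30 copies are higher in both WT-titled libraries, and Rps10 has 33 to 70 counts beside 3426 to 4471 in its copies.

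Of the 18 listed members with known roles outside the ribosome, both LPS libraries lay above both untreated ones for 15 with TMM. The same held for 77 of all 88 measured members, for 34.6% of measured genes and for 1256 of the 1911 other genes of at least 100 CPM. With library totals, 0 of the 18 lay above and 8 below, against 15.6% and 64.4% of genes. The groups of Rps27a, Rpl13a and Rpsa, described above, overlapped with TMM. Rps3, a small-subunit protein that also binds NF-kB subunits, was at 895, 895, 1023 and 1081 CPM. Rpl5 and Rpl11, which bind the p53 regulator MDM2 when ribosome assembly fails, were at 543, 506, 668 and 755 CPM and at 552, 540, 621 and 740 CPM. Rps6, the substrate of the S6 kinases, was at 649, 598, 714 and 878 CPM. For these 4 genes both LPS libraries were above both untreated ones with TMM, and with library totals the WT-titled LPS library was below both untreated ones. Rps19, the gene first linked to Diamond-Blackfan anaemia, was at 675, 628, 689 and 811 CPM. The 18 genes of that disease list had medians of 0.24 and 0.48, close to those of the core genes.

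Of the paralogues expressed here, Rps27l, Rps27rt and Rpl22l1 were higher with LPS with TMM, as their parents were, while Rpl7l1 above was not. Rps27l, a p53-responsive form of Rps27, was at 98.1, 99.8, 116 and 131 CPM, and Rps27rt, a retrogene, at 47.3, 54.4, 63.4 and 63.9 CPM, while Rps27 itself was at 322, 315, 437 and 464 CPM. Rpl22l1 was at 57.9, 49.2, 65.1 and 72.9 CPM beside Rpl22 at 235, 234, 245 and 300 CPM. With library totals each of these 5 was lower with LPS in the WT title.

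Other genes of protein synthesis were read in the same fit. Of 77 mitochondrial ribosomal protein genes, 1 rose (Mrpl52, at 29.3, 35.7, 83.0 and 80.7 CPM, adjusted p 0.017, edgeR) and 0 fell. Of all tested genes, 9.7% rose and 6.2% fell. The median log2 LPS ratios of the mitochondrial ribosomal protein genes were 0.03 and -0.02 with TMM and -0.58 and -0.49 with library totals. Of 23 translation factors and related genes with TOP mRNAs, 0 were called. Their medians were 0.16 and 0.38 with TMM and -0.45 and -0.08 with library totals, so their direction also depends on the scaling. Among them Pabpc1, the poly(A)-binding protein, was at 783, 760, 1237 and 1378 CPM, and Eef1a1, the elongation factor that brings tRNA, at 5483, 4572, 6223 and 7428 CPM. Of 7 measured chaperones of ribosomal proteins 0 were called. Unadjusted p was under 0.05 for 2 of the 23 factors and 0 of the 7 chaperones, and DESeq2 and limma-voom called 0 in both lists.

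A list around the regulators of TOP mRNAs was also read. Of its 17 genes, of the mTOR complexes, the LARP proteins and MYC, 2 rose and 3 fell, beside 9.7% and 6.2% of all tested genes. DESeq2 and limma-voom called the same 5. The median log2 LPS ratios of the 17 were -0.17 and -0.06 with TMM and -0.78 and -0.53 with library totals. Larp1, which binds the cap and TOP motif and represses and stabilizes these mRNAs, was at 106, 98.1, 521 and 634 CPM, with a fitted effect of 2.49 ± 0.27 log2 units (adjusted p 0.0064, edgeR). Rictor, of the related complex mTORC2, rose from 21.5 and 23.1 to 66.9 and 53.1 CPM (adjusted p 0.016, edgeR). Eif4ebp2, a repressor of the cap-binding factor, fell from 159 and 163 to 63.4 and 65.5 CPM, Akt1s1, an inhibitor of mTORC1, from 56.6 and 56.2 to 16.0 and 21.1 CPM, and Mlst8, a subunit of both complexes, from 15.6 and 18.2 to 6.87 and 6.06 CPM (adjusted p 0.017, 0.012 and 0.043, edgeR). Myc was at 9.48, 5.50, 13.5 and 11.1 CPM and was not called. Whether these levels bear on the members was not tested.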

How the data were processed

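Polyadenylated RNA of 4 libraries was sequenced, with 1 library in each group. Per the submitters' processing notes, HISAT2 2.0.5 and the mm10 build were used by the authors. How reads were counted, whether by strand, and how the authors tested were not given in the sources used here. The deposited table held a read count per gene, per the file headers. It also held the authors' FPKM, per the file headers, and the authors' log2 folds, each with its p-value raw and adjusted, per the file headers. Of the per-sample values, 8 further columns went unused.

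Counts of 17610372, 23835940, 20947275 and 19464937 per library were scaled by TMM factors of 1.25, 1.16, 0.820 and 0.840. The members and lists were chosen with earlier results of these data known. Named members were the 6 highest and 6 lowest within the family total at 5 CPM or more, the highest and lowest by FPKM, those past the size rule, and fixed lists of stalk genes, paralogues and members with other roles. Rpl41, Rpl30, Rps14, Rps10 and the copies were singled out after their values were seen. The additive model of titled genotype and treatment was fitted to all genes by edgeR's quasi-likelihood test (version 4.0.16, Benjamini-Hochberg adjustment, genes kept by filterByExpr), and its ± is the standard error implied by the F statistic. The edgeR fit was tested on simulated data with LPS changes larger than those of most members. That leaves the recovery of small changes untested. DESeq2 1.42.0 and limma 3.58.1 (voom) refitted the model. The size rule for pairs of libraries took genes averaging 1 CPM or more, a prior count of 2 and exact 95% binomial intervals, and folds are printed without that prior. Near copies were found with BLAST 2.17.0 against GENCODE M21 transcripts (at least 95% identity over at least 50% of the coding bases). Gene positions of 90 members were the same in GENCODE M21. With 1 library a group, no spread between replicates could be measured.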

Additional observations from a re-analysis of the deposited data

Results flagged for a closer look

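With TMM, LPS ratios ran in opposite directions in the 2 titles for 5 members, with both counting intervals excluding no change. With 1 library a group the difference was not tested. As the log2 LPS ratio in the KO title minus that in the WT title, it was -2.2683 for Rps27a, -1.4496 for Rpl17, 1.758 for Rpl13a, 0.5609 for Rpl3 and 0.5438 for Rpsa. The difference does not separate the titled genotype from the libraries, since the titles, the genotype tags and Lyz1 group the libraries in different ways. For Rpl17, counts of the gene and its near copies together gave ratios of the same direction in both titles, and for the other 4 the opposite directions were also found in the joint counts. With library totals, the LPS ratios of Rpl3 and Rpsa were below 0 in both titles, and the other 3 kept their opposite directions. The ratio of Rpl3 in the KO title was then close to no change (log2 ratio -0.03).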

How the results depend on the processing

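No paired analysis was possible because the libraries carry no replicate numbers and each group holds 1, beyond the term for titled genotype that the model already has. Leaving out a library was not possible for the same reason. Counting error was large for Rpl24, Rps10 and Rpl36al, with 15 to 70 counts. Members called for LPS numbered 0 in the model of title and treatment, 1 without the filter on low counts (Rpl21) and 2 with treatment alone (Rpl21 and Rpl38), against 2225, 3797 and 4563 of all genes. The median log2 LPS ratio reversed with library totals, to -0.3708 in the WT title and -0.0298 in the KO title. Members with opposite directions in the 2 titles then numbered 31 in place of 5, beside 9.46% in place of 10.4% of measured genes. The median was 0.2755 and 0.5282 with DESeq2 size factors, 0.3296 and 0.6198 with upper-quartile factors, 0.2741 and 0.5246 from FPKM with a pseudocount of 1, and 0.2755 and 0.528 with one of 0.1. The median KO to WT ratio, in the same order of settings and starting with library totals, was -0.1152, -0.0287, -0.038, -0.0285 and -0.0287 untreated and 0.2279, 0.226, 0.2542, 0.2252 and 0.2259 with LPS. Both LPS libraries were above both untreated ones for 2 members with library totals, and below for 45. For LPS in the WT title, 1 member was past the size rule with library totals (Rpl13a) and 6 at a fold of 1.5, beside 42.7 and 48.5% of genes. In the KO title, the count was 1 with library totals (Rps27a), 6 with DESeq2 size factors, 21 at a fold of 1.5, 4 with a prior count of 0.5 and 1 at a mean of at least 5 CPM, beside 41, 32.1, 52.8, 33 and 27.4% of genes. Between untreated libraries it was 2 with library totals and 5 at a fold of 1.5, beside 5.4 and 13.9%. The members' share of counts was 4.7615, 4.398, 3.6813 and 4.2682% of protein-coding counts, and 4.6064, 4.2528, 3.5608 and 4.1381% for the core genes, whose subunit ratio was 0.7468, 0.7276, 0.7441 and 0.753.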
